A study of Mus musculus with 16 samples.

Results

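The early growth response genes Egr1, Egr2, Egr3 and Egr4 and the genes of their corepressors, Nab1 and Nab2, were followed in cultured mouse neurons exposed to 3 peptides. These 6 genes were taken by gene symbol from the 45724 genes of the deposited table, with no use of measured values, and all 6 passed the filter on low values in every comparison. The cells were primary neurons, cultured from C57BL/6 mouse brain at postnatal day 0. They received NP24, thymosin β10 (Tβ10) or thymosin β4 (Tβ4), which the series' title and design attribute to the subcommissural organ, a gland of the dorsal midline that secretes into the cerebrospinal fluid, or the vehicle DPBS (Dulbecco's phosphate-buffered saline) as the control. Each of the 4 groups had 4 libraries of total RNA, and no group carried a transgene or deletion in the labels. Doses and exposure times are not given in the sources used here, so values for the peptides are set side by side without dose matching. The labels do not say whether replicates were separate cultures, so a p-value measures only the spread between these samples, which may be technical.

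EGR proteins are zinc finger transcription factors that bind GC-rich elements, and their genes are immediate early genes: synaptic activity, growth factors and stress induce them without new protein synthesis. Egr1 is induced largely through the ERK kinases and the serum response factor SRF with its ternary complex partners, and also through CREB. NAB1 and NAB2 bind EGR1, EGR2 and EGR3 and recruit the NuRD chromatin remodelling complex, which represses the target genes; Nab2 is itself a known EGR target, so the proteins form a feedback loop. In brain, Egr1 and Egr3 are studied for their part in synaptic plasticity, while Egr2 is best known as the master regulator of myelination in Schwann cells.

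Reads assigned to genes ranged from 11642242 to 38254320 per library, and 1 read was worth 0.536 to 1.71 normalized counts, the deposited unit. All 13 neuronal markers on the list were measured in every group, with summed normalized counts of 75968 to 82710 with NP24, 74031 to 82272 with Tβ10, 57575 to 82843 with Tβ4 and 66613 to 75167 in controls. Markers of glia, fibroblasts and vessels were measured as well, with values given beside the results. Mitochondrial ribosomal RNA took 7.15 ± 1.03% of reads with NP24, 7.20 ± 1.96% with Tβ10, 15.3 ± 6.71% with Tβ4 and 11.3 ± 2.07% in controls (SD, n = 4 each). In such bulk RNA, fewer cells of a type and less RNA per cell cannot be told apart.

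Egr1 was the member that changed. It fell with NP24 (2.85-fold lower than with the vehicle) and with Tβ10 (3.02-fold lower), and was not called with Tβ4. Egr2, Egr3, Egr4, Nab1 and Nab2 passed the threshold against the control with none of the 3 peptides. The threshold was an adjusted p of 0.05, by limma-trend on log2(normalized count + 1) with Benjamini-Hochberg adjustment over all genes tested. With NP24, 1 of 6 members was called, against 2.63% of the 21774 genes tested, and with Tβ10 again 1 of 6, against 0.633% of 21960 genes. With Tβ4, 0 of 6 members and 0% of 22205 genes were called, although 1568 genes had an unadjusted p under 0.05; DESeq2 called 82 genes there and edgeR 0. The members' median log2 difference from the control was 0.21 with NP24, 0.08 with Tβ10 and 0.43 with Tβ4, beside −0.00 in all genes tested in each of the 3 comparisons.

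**Figure D1:**
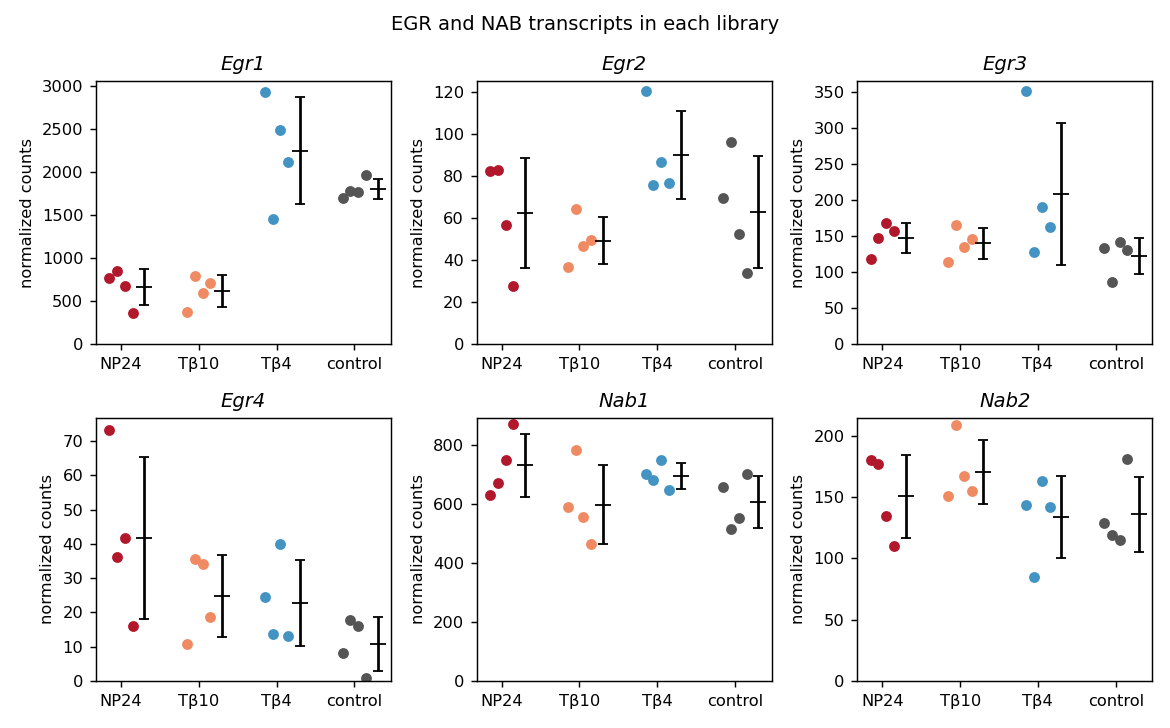
Normalized counts of the 6 genes in each library, with the peptide groups left of the control; dots are libraries, and the bar beside them is the mean with its SD (n = 4). Egr1 sits between 362 and 844 with NP24 and between 378 and 793 with Tβ10, below all controls (1696 to 1967), while the groups overlap for the other genes in all comparisons with the control.

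Egr1 (ENSMUSG00000038418.7; GRCm38 chromosome 18, 34859823 to 34864984, plus strand, 4484 exonic bases) encodes the most widely used marker of neuronal activation among the 4 factors. Its normalized counts were 768, 844, 672 and 362 with NP24, 378, 793, 589 and 711 with Tβ10, 2927, 1455, 2491 and 2113 with Tβ4, and 1696, 1778, 1765 and 1967 in controls. Every NP24 and every Tβ10 library lay below every control, and the Tβ4 libraries overlapped the controls, with 3 above them all and replicate 2 below them all. Such separation from the control in either direction was found for 9.84% of all genes with NP24, 6.92% with Tβ10 and 4.43% with Tβ4.

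The mean level of Egr1 was 662 ± 212 normalized counts with NP24 against 1802 ± 116 in controls (SD, n = 4 each), which is 2.85-fold lower on the log2(normalized count + 1) scale (log2 difference −1.51 ± 0.17 SE, limma adjusted p = 7.21e-05). With Tβ10 the mean was 618 ± 181 normalized counts, 3.02-fold lower than in controls (log2 difference −1.59 ± 0.17 SE, limma adjusted p = 0.000123). By p-value Egr1 ranked 5th of all genes with NP24 and 4th with Tβ10. By size it was less extreme: 50 of the 319 genes called lower with NP24, and 26 of the 117 called lower with Tβ10, fell at least as far, Egr1 included. Egr1 was called in all 8 fits that left out 1 library and in all 9 other alternatives, with each of these peptides. In the authors' deposited table the log2 fold change of Egr1 was −1.45 for NP24 (adjusted p = 6.75e-06), −1.55 for Tβ10 (adjusted p = 7.7e-07) and 0.32 for Tβ4 (adjusted p = 0.751).

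With Tβ4 the mean was 2246 ± 624 normalized counts (SD, n = 4), and the log2 difference from the control was 0.27, with a 95% interval of −0.11 to 0.66 (limma adjusted p = 0.858). This call rested on Tβ4 replicate 2: without it the log2 difference was 0.47 and passed (limma adjusted p = 0.0452), in a fit that called 360 genes in place of 0. The mitochondrial ribosomal RNA share of Tβ4 replicates 1 to 4 was 24.3%, 8.25%, 15.5% and 13.2%, so these libraries stood in the same order by that share as by Egr1. The other groups did not show that order. Control replicate 1 had the highest share (14.2%) and the lowest Egr1 of the controls. NP24 replicates 3 and 4 had the highest shares (8.12% and 7.92%) and the lowest Egr1 of their group. Tβ10 replicate 2 had the highest share (9.53%) and the highest Egr1 of its group, but replicate 4, with the lowest share (4.76%), came next by Egr1. Between groups, every NP24 library lay below every control in this share as in Egr1 (5.98% to 8.12% against 9.32% to 14.2%). The Tβ10 libraries ran from 4.76% to 9.53% and overlapped the controls in share. The part of this share in the result was not tested. The controls were the most uniform group for Egr1, with a coefficient of variation of 6.45%, against 32.0% with NP24, 29.2% with Tβ10 and 27.8% with Tβ4.

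The peptides were compared directly in 1 fit of the 16 libraries, in 3 pairs. NP24 and Tβ10 were not separated for Egr1: the log2 difference was 0.08, with a 95% interval of −0.42 to 0.59 that leaves room for differences in either direction. In that pair 0 of 6 members and 0% of 24232 genes were called by limma, with 591 genes at an unadjusted p under 0.05 and 0 called by edgeR or DESeq2; none of the 6 members separated the groups, against 2.11% of genes. Egr1 was 3.45-fold lower with NP24 than with Tβ4 (log2 difference −1.79, 95% interval −2.29 to −1.28, limma adjusted p = 0.000459). It was 3.65-fold lower with Tβ10 than with Tβ4 (log2 difference −1.87, interval −2.37 to −1.36, limma adjusted p = 0.000313). Each of these pairs gave 1 called member of 6, Egr1, against 2.09% of all genes for NP24 and 1.35% for Tβ10, and the separation of libraries from Tβ4 was shared by 7.54% of genes for NP24 and 6.59% for Tβ10. Ordered by mean, Egr1 stood lowest with Tβ10, next with NP24, then in controls and highest with Tβ4; NP24 and Tβ10 did not differ beyond their spread, nor did Tβ4 and the controls.

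**Figure D2:**
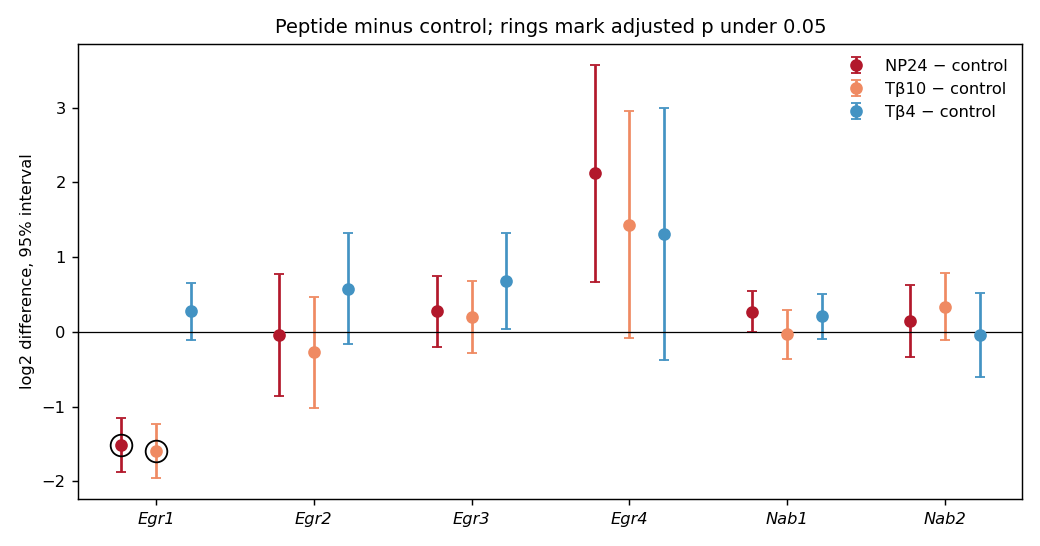
Log2 difference from the control for each gene and peptide, from limma on log2(normalized count + 1), with 95% intervals; black rings mark an adjusted p under 0.05. The only ringed points are Egr1 with NP24 (−1.51) and Egr1 with Tβ10 (−1.59); Egr4 has the widest intervals.

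Egr2 (ENSMUSG00000037868.15; GRCm38 chromosome 10, 67535475 to 67542188, plus strand, 3398 exonic bases) has been studied in hindbrain patterning and peripheral myelin. Its normalized counts were 82.5, 83.1, 56.8 and 27.6 with NP24, 37.0, 64.3, 46.8 and 49.5 with Tβ10, 121, 76.1, 86.9 and 76.9 with Tβ4, and 69.7, 96.4, 52.4 and 33.9 in controls. All groups overlapped the controls, and the highest control exceeded 3 of the 4 Tβ4 libraries. The log2 difference from the control was −0.04 (95% interval −0.85 to 0.78) with NP24, −0.27 (−1.02 to 0.47) with Tβ10 and 0.58 (−0.17 to 1.33) with Tβ4, and limma adjusted p was 0.978, 0.823 and 0.832. Between peptides, every Tβ10 library lay below every Tβ4 library, with a log2 difference of −0.86 (interval −1.62 to −0.09) that did not pass the adjustment (limma adjusted p = 0.334). That made 2 of 6 members, Egr1 and Egr2, without overlap between Tβ10 and Tβ4, against 6.59% of all genes tested.

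A 250-base stretch before a start of Egr2 is shown because it holds the kind of element through which SRF acts on immediate early genes. It is RefSeq sequence of GRCm38.p6, chr10:67537619-67537868, plus strand, printed 5′ to 3′. It ends just before the start site at 67537869 and holds none of the exon that begins there. It lies inside the GENCODE M21 gene, downstream of other listed starts at 67535499 and 67537566. Whether it overlaps exons of transcripts from those starts was not checked. Capitals mark a CArG box, the SRF binding motif.
Egr2 upstream: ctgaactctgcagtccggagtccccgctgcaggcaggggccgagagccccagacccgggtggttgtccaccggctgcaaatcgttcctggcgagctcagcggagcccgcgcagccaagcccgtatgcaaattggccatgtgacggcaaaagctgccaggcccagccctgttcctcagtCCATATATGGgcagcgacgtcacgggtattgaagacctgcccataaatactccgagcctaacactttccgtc
The box begins 72 bases before the start. A CArG box was found in 1.47% of the 32851 RefSeq promoter windows of this length. The same window was searched on both strands for the EGR element GCGNGGGCG, the CRE TGACGTCA, the ETS site CCGGAA and the AP-1 site TGANTCA, present in 4.7%, 1.55%, 12% and 6.75% of all windows, and held none of them. The window before another listed Egr2 start, at 67537566, held a different CArG box and 3 ETS matches, but no annotated transcript start was found there. Of these, the matches at 131 and 129 bases before the start overlap, as the strands of a single palindrome. These are matches of letters and say nothing of occupancy.

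Egr3 (ENSMUSG00000033730.4; GRCm38 chromosome 14, 70077203 to 70082614, plus strand, 4406 exonic bases) is induced by neuronal activity and is needed for muscle spindle formation. Its normalized counts were 119, 147, 168 and 157 with NP24, 114, 165, 135 and 147 with Tβ10, 352, 128, 190 and 163 with Tβ4, and 134, 86.1, 142 and 130 in controls. Tβ4 replicate 1 stood well above all others, and every group overlapped the controls. The log2 difference was 0.28 ± 0.23 SE with NP24 and 0.20 ± 0.23 SE with Tβ10, and limma adjusted p was 0.589 and 0.791. With Tβ4 it was 0.68 ± 0.30 SE, which had an unadjusted limma p of 0.0404 and did not pass the adjustment (adjusted p = 0.692).

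Egr4 (ENSMUSG00000071341.4; GRCm38 chromosome 6, 85511121 to 85513589, minus strand, 2148 exonic bases) had the fewest reads of the 6 genes, 1 to 79 per library. It has been reported to act on the neuronal chloride transporter gene Slc12a5. Normalized counts were 73.2, 36.2, 41.7 and 16.01 with NP24, 10.7, 35.5, 34.2 and 18.8 with Tβ10, 24.4, 13.6, 40.001 and 13.01 with Tβ4, and 8.27, 17.8, 16.1 and 0.869 in controls. The last of these control values was 1 read. NP24 overlapped the controls through replicate 4, and its other 3 libraries lay above them.

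The mean of Egr4 was 41.8 ± 23.7 normalized counts with NP24 against 10.8 ± 7.79 in controls (SD, n = 4 each). The log2 difference was 2.12, with a 95% interval of 0.67 to 3.58, and missed the threshold (limma adjusted p = 0.107). DESeq2 on the recovered reads did call it (log2 difference 1.95, adjusted p = 0.0445), and the authors' deposited table gave 1.95 with an adjusted p of 0.0986. With Tβ10 and Tβ4 the log2 difference was 1.43 (interval −0.09 to 2.96) and 1.31 (interval −0.37 to 3.00), and limma adjusted p was 0.479 and 0.825. Without 1 library the log2 difference ran from 1.39 to 2.51 with NP24 and from 0.70 to 1.81 with Tβ10, lowest in each case without control replicate 4, the library with 1 read; with a pseudocount of 10 it was 1.29 with NP24 and 0.76 with Tβ10.

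Nab1 (ENSMUSG00000002881.14; GRCm38 chromosome 1, 52457294 to 52500679, minus strand, 4100 exonic bases) encodes the more constitutive of the corepressors. Its normalized counts were 631, 673, 750 and 872 with NP24, 590, 782, 556 and 464 with Tβ10, 704, 680, 750 and 647 with Tβ4, and 658, 514, 552 and 701 in controls. All groups overlapped, and over all 16 libraries the highest value was 1.88 times the lowest, against 8.08 times for Egr1. The log2 difference from the control was 0.27 (95% interval −0.01 to 0.55) with NP24, −0.03 (−0.37 to 0.30) with Tβ10 and 0.21 (−0.09 to 0.50) with Tβ4, and limma adjusted p was 0.306, 0.960 and 0.860.

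The RefSeq promoter table matched 4 of the 6 genes (Egr2, Egr4, Nab1 and Nab2), and EGR elements were found in the window of Nab1. The stretch before its RefSeq start held 3 matches to GCGNGGGCG on either strand, and no CArG box, CRE, ETS or AP-1 match. They are shown, 5′ to 3′ on the strand of the gene (minus, RefSeq GRCm38.p6), each with 10 bases on both sides and the element in capitals.
Nab1, 141 bases before the start, chr1:52500571-52500599: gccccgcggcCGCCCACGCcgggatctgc
Nab1, 109 bases before the start, chr1:52500539-52500567: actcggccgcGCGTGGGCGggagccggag
Nab1, 38 bases before the start, chr1:52500468-52500496: gcggggcgggGCGGGGGCGgcggaggtgg
The first of these is the element on the opposite strand. In GENCODE M21 these bases also lie within the gene's first exon, because that annotation starts the gene further upstream. Windows of Egr4 and Nab2 held none of the 5 motifs. The Nab2 window (chr10:127666704-127666953) lies inside the GENCODE M21 gene, which begins further upstream, at 127668568. The bases before that M21 start were not searched.

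Nab2 (ENSMUSG00000025402.12; GRCm38 chromosome 10, 127660918 to 127668568, minus strand, 2941 exonic bases) encodes the inducible corepressor. Its values are uncertain, because Gm16229 on the opposite strand shares 1050 exonic bases, 35.7% of those of Nab2, and the strand setting of the authors' read counting is not given in the sources used here. Nemp1 and Stat6, also on the opposite strand, share a further 151 and 40 bases. Normalized counts of Nab2 were 181, 177, 135 and 110 with NP24, 151, 209, 167 and 155 with Tβ10, 144, 85.2, 163 and 142 with Tβ4, and 129, 119, 115 and 181 in controls. The groups overlapped throughout. The log2 difference was 0.14 (95% interval −0.34 to 0.62) with NP24, 0.34 (−0.11 to 0.78) with Tβ10 and −0.04 (−0.60 to 0.52) with Tβ4, and limma adjusted p was 0.813, 0.586 and 0.991. Gm16229 averaged 58.1 ± 18.02 normalized counts with NP24, 61.1 ± 29.0 with Tβ10, 49.7 ± 18.004 with Tβ4 and 45.8 ± 14.4 in controls (SD, n = 4 each).

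Egr1 fell relative to each of the other members with NP24 and Tβ10. The log2 ratio of each other member to Egr1 within a library was taken after adding 1 to each normalized count. It was compared with the control by an exact two-sided permutation test in 15 comparisons. The added 1 leaves some dependence on how libraries are scaled, most for Egr4, which had 0.869 in control replicate 4. All 5 ratios were higher with NP24 and all 5 with Tβ10, in every peptide library above every control library, at the smallest p that 4 against 4 libraries allow (exact permutation p = 0.0286, adjusted 0.0429 over the 15). With NP24 the log2 ratio to Egr1 was higher by 1.47 for Egr2, 1.79 for Egr3, 3.63 for Egr4, 1.78 for Nab1 and 1.65 for Nab2. With Tβ10 it was higher by 1.32 for Egr2, 1.79 for Egr3, 3.03 for Egr4, 1.56 for Nab1 and 1.93 for Nab2. With Tβ4 none passed (exact permutation adjusted p 0.195 to 0.8286), and the differences ran from −0.32 for Nab2 to 1.04 for Egr4. The ratios share Egr1 as their denominator and are not independent of its change. Every Egr1 value with NP24 and Tβ10 already lay below every control, so the 10 tests that passed largely restate its fall. Their adjusted p is under 0.05 only because so many of these linked tests tied at the smallest p, and it adds no separate evidence.

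Per kilobase of exon, where genes can be compared in level, Egr1 made up 66.6 ± 4.27% of the 4 EGR transcripts with NP24, 69.98 ± 2.95% with Tβ10, 85.7 ± 1.76% with Tβ4 and 88.6 ± 2.05% in controls (SD, n = 4 each). The share of Egr3 was 16.8% with NP24, 16.7% with Tβ10, 7.87% with Tβ4 and 6.17% in controls. Egr4 accounted for 8.502% with NP24 and 5.74% with Tβ10, against 1.12% in controls, and Egr2 for 8.09% and 7.54%, against 4.13% in controls. Shares are parts of a whole, so those of the other genes rise when Egr1 falls. In normalized counts per kilobase with NP24, Tβ10 and in controls, Egr3 averaged 33.5, 31.8 and 27.9. Egr2 averaged 18.4, 14.5 and 18.6, and Egr4 19.5, 11.5 and 5.01, and none of these genes was called. Summed over the 4 genes, the EGR level was 219 ± 60.4 normalized counts per kilobase with NP24, 196 ± 52.3 with Tβ10, 585 ± 168 with Tβ4 and 453 ± 19.0 in controls. Nab1, at a mean of 178 normalized counts per kilobase with NP24 and 146 with Tβ10, exceeded Egr1 in 2 of 4 NP24 libraries and 3 of 4 Tβ10 libraries, and in 0 of 4 Tβ4 and 0 of 4 control libraries. Egr1 itself stood at 148 normalized counts per kilobase with NP24, 138 with Tβ10, 501 with Tβ4 and 402 in controls.

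**Figure D3:**
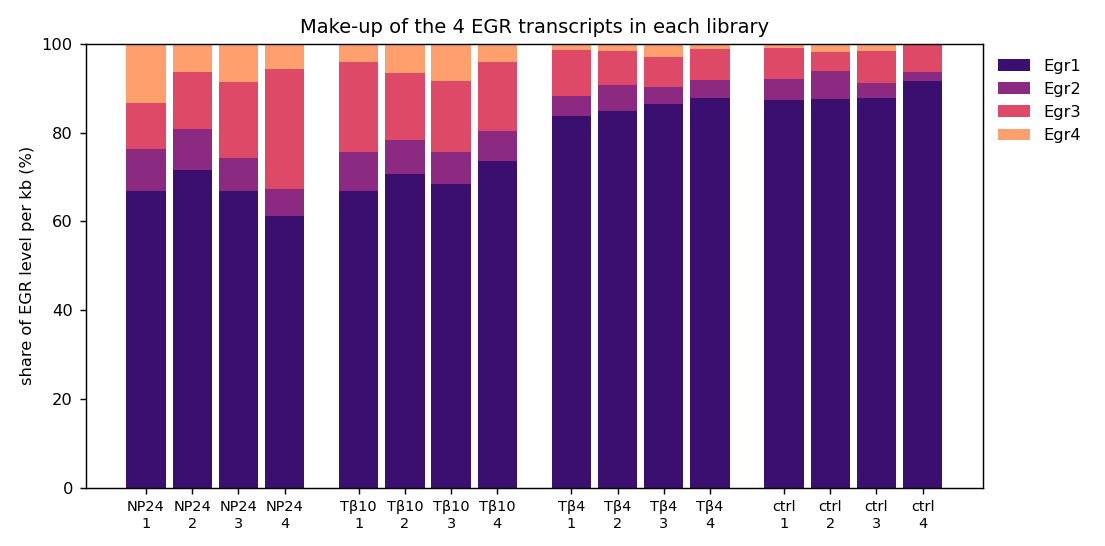
Share of each EGR gene in the summed EGR level (normalized counts per kilobase of exon) in each of the 16 libraries, replicates 1 to 4 per group (ctrl, control). Egr1 takes 61.1% to 73.7% in the NP24 and Tβ10 libraries and 83.7% to 91.6% in the Tβ4 and control libraries.

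The upstream regulators were described from lists of their genes. Of the SRF, ternary complex and myocardin-related genes, 6 were tested, and Srf itself fell with NP24 (log2 difference −0.53, limma adjusted p = 0.0367) and with Tβ10 (−0.65, limma adjusted p = 0.0304). Srf averaged 446 ± 64.9 normalized counts with NP24 and 408 ± 42.2 with Tβ10, against 640 ± 52.9 in controls (SD, n = 4 each), but of 8 fits that left out 1 library it was called only without NP24 replicate 2 or 4, and only without Tβ10 replicate 1 or 2. Elk1, which encodes a ternary complex factor, had a log2 difference of −0.17 with NP24 (limma adjusted p = 0.527). None of 11 genes for the ERK, RSK and MSK kinases and none of 8 for the CREB family and its coactivators passed with any peptide. Rps6ka5, which encodes an MSK kinase, had a log2 difference of −0.32 with Tβ10 (limma adjusted p = 0.363). Activity of these kinases and factors is not measured by their transcripts. Of 14 genes for the NuRD complex, Gatad2b rose with NP24 (log2 difference 0.34, limma adjusted p = 0.0445), a call kept only without NP24 replicate 2 or 4 among the fits that left out 1 library, and none passed with Tβ10 or Tβ4.

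Reported EGR targets fell into 4 lists, compiled with earlier results of these data known. Among neuronal targets, 1 of 10 tested rose with NP24: Syn1, a synaptic vesicle protein gene, by 0.40 on the log2 scale (limma adjusted p = 0.0131; lost without NP24 replicate 3 or control replicate 1). With Tβ10, 0 of 11 passed, and Vgf, a neuropeptide precursor gene, had a log2 difference of −0.95 (limma adjusted p = 0.101). Among growth factor and matrix targets, 4 of 14 tested fell with NP24 and 2 of 13 with Tβ10. Vegfa, a vessel growth factor gene, fell by 0.86 on the log2 scale with NP24 (limma adjusted p = 0.000934) and by 0.84 with Tβ10 (limma adjusted p = 0.00178). Vegfa was called in all 8 fits that left out 1 library with each of these peptides.

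Fn1, the fibronectin gene, fell with NP24 by 0.49 on the log2 scale (limma adjusted p = 0.0232; lost without NP24 replicate 3, control replicate 3 or control replicate 4). Hpse, the heparanase gene, was also called with NP24 (log2 difference −3.08, limma adjusted p = 0.0473) and was kept only without NP24 replicate 3 or control replicate 2. The list's median log2 difference was −0.55 with NP24, −0.52 with Tβ10 and 0.52 with Tβ4. Of the growth arrest and death targets, 1 of 10 fell with NP24 and with Tβ10, namely Cdkn1a, the gene of a cell cycle inhibitor (log2 difference −1.01, limma adjusted p = 0.00466, and −0.92, limma adjusted p = 0.0471). The Tβ10 call for Cdkn1a was kept only without Tβ10 replicate 1 or 2 or control replicate 3. Of the myelin and lipid genes reported as EGR2 targets, Mbp fell with NP24 (log2 difference −0.59, limma adjusted p = 0.00183), 0 of 9 passed with Tβ10, and Egr2 itself was not called with either. No gene of the 4 lists passed with Tβ4, though without Tβ4 replicate 2 the growth factor and matrix list had 3 called higher and the growth arrest list 1. The spread taken from all 16 libraries ended the calls of Srf with both peptides, Gatad2b, Syn1, Fn1 and Hpse with NP24 and Cdkn1a with Tβ10. Scaling to library size ended those of Srf and Cdkn1a with Tβ10, and the replicate block ended the same pair and Gatad2b with NP24. Without the filter on low values, Srf, Gatad2b and Hpse with NP24 and Cdkn1a with Tβ10 were no longer called; edgeR did not call Gatad2b, and a pseudocount of 0.1 ended the calls of Hpse with NP24 and Cdkn1a with Tβ10.

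Among 40 other immediate early genes, 2 were called higher and 9 lower with NP24, 0 higher and 7 lower with Tβ10, and 0 with Tβ4. Npas4, an activity-dependent transcription factor gene of neurons, averaged 225 ± 47.5 normalized counts with NP24 and 252 ± 27.8 with Tβ10, against 695 ± 151 in controls (SD, n = 4 each). Its log2 difference was −1.62 with NP24 (limma adjusted p = 2.46e-05) and −1.44 with Tβ10 (limma adjusted p = 0.000163). Btg2, an antiproliferative gene, fell with both (log2 difference −0.85 and −0.98, limma adjusted p = 0.00272 and 0.00638; the Tβ10 call was lost without control replicate 1). Atf3, a stress-induced factor gene, fell with Tβ10 (log2 difference −2.33, limma adjusted p = 0.00178) and with NP24 (−1.70, limma adjusted p = 0.0361). The Atf3 call was kept in all 8 fits that left out 1 library with Tβ10, but in only 1 of 8 with NP24. Inhba, which encodes an activin subunit, rose with NP24 (log2 difference 0.57, limma adjusted p = 0.00685, lost with the spread of all 16 libraries).

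The list's median log2 difference was −0.29 with NP24, −0.48 with Tβ10 and 0.18 with Tβ4, where all genes tested had −0.00. The number called lower was 3 to 11 with NP24 and 2 to 10 with Tβ10 when any 1 library was left out. It was 3 without NP24 replicate 1 or 3 or control replicate 1 or 4, 4 without control replicate 2 or 3 and 5 without NP24 replicate 4. With Tβ10 it was 2 without control replicate 1, 3 without Tβ10 replicate 3 or control replicate 2, 3 or 4, and 4 without Tβ10 replicate 4. Without Tβ4 replicate 2, 5 of the 40 were called higher with Tβ4. Egr1 was thus among many lower immediate early genes with NP24 and Tβ10, whereas Egr2, Egr3 and Egr4 lay above the list's median there. With Tβ4, Egr1 (0.27) lay above that median as well, as did Egr2, Egr3 and Egr4. The distance of these genes from the list was not tested. Of 10 genes tested for other factors that bind GC-rich sites, such as Klf16 with NP24 (log2 difference −0.51, limma adjusted p = 0.207), none passed with any peptide.

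**Figure D4:**
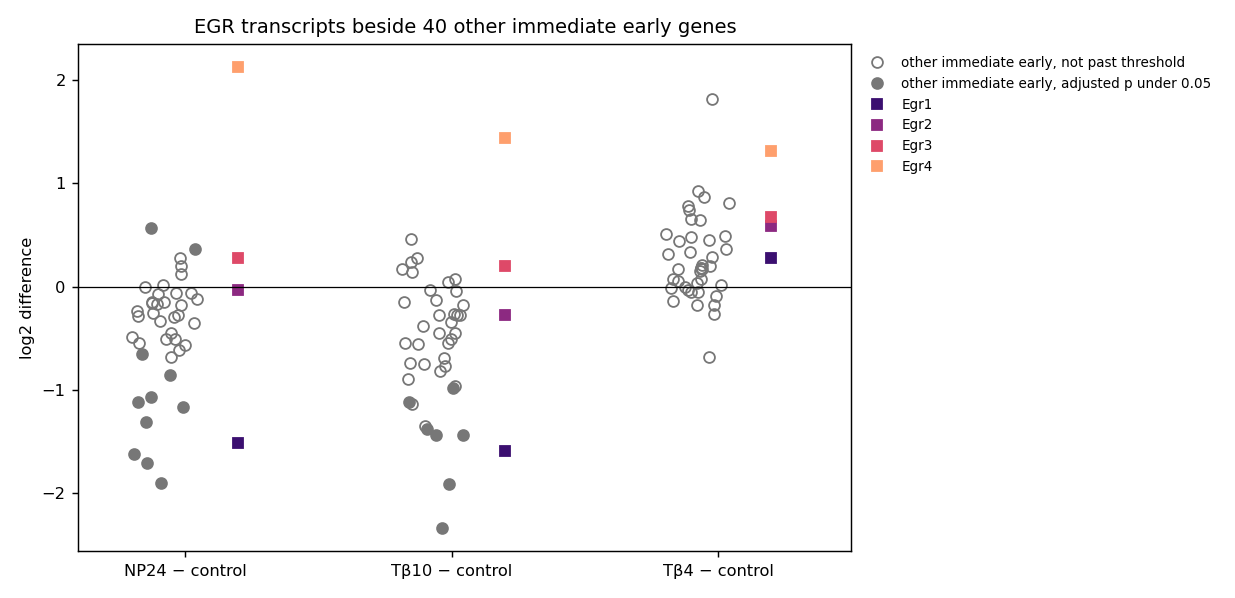
Log2 difference from the control for each of 40 other immediate early genes (circles, filled where the adjusted p was under 0.05) and for Egr1 to Egr4 (squares), by peptide. With NP24 and Tβ10, Egr1 (−1.51 and −1.59) lies at the low end and Egr4 (2.12 and 1.43) at the top; with Tβ4 no circle is filled.

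Markers of other cell types moved in the same comparisons as Egr1. Of fibroblast and meningeal markers, 5 of 7 tested fell with NP24 and 4 of 7 with Tβ10, with a median log2 difference of −2.14 and −1.91. The summed level of all 9 listed was 1381 to 1674 normalized counts with NP24, 1216 to 1640 with Tβ10, 1976 to 4592 with Tβ4 and 1928 to 2491 in controls. The largest part of that sum was Pdgfra, which is also on the oligodendrocyte lineage list. Pdgfra averaged 1091 with NP24, 1038 with Tβ10, 1344 with Tβ4 and 1222 in controls. Vessel and pericyte markers were called lower in 2 of 5 with each of NP24 and Tβ10, Rgs5 and Pdgfrb in both cases. Of the 5 tested, 4 had a negative log2 difference with each of these peptides. The other, Tek, averaged 38.3 normalized counts with NP24 and 40.4 with Tβ10, against 24.2 in controls. The sum of the 8 listed was 245 to 315 normalized counts with NP24, 209 to 302 with Tβ10, 704 to 1644 with Tβ4 and 388 to 581 in controls. Pdgfrb and Rgs5 were the largest parts of that sum in controls, with means of 219 and 133. Microglial and macrophage markers were lower in 4 of 8 with NP24 and 2 of 10 with Tβ10, with a median log2 difference of −1.34 and −1.32. The sum of the 12 listed was 1815 to 1946 normalized counts with NP24, 1723 to 2150 with Tβ10, 2218 to 3147 with Tβ4 and 2075 to 2532 in controls. Cx3cr1 was the largest part of that sum in every group. Its mean was not lower, at 1362 with NP24, 1399 with Tβ10, 1403.5 with Tβ4 and 1304 in controls. Leaving out 1 library gave 4 to 5, 0 to 2 and 2 to 4 lower fibroblast, vessel and microglial markers with NP24, and 1 to 5, 0 to 2 and 0 to 4 with Tβ10, the fewest without control replicate 1 in each case. Without control replicate 4 the vessel count was also 0 with both peptides and the microglial count 0 with Tβ10, and the Tβ10 vessel count was also 0 without control replicate 3 or Tβ10 replicate 4. Without Tβ4 replicate 2 these lists had 4, 2 and 1 markers called higher with Tβ4. The part of these cells in the Egr1 result was not tested.

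Defining markers at 0 in all libraries of a group were Cldn5 with NP24, Cldn5, Tmem119 and Foxd3 with Tβ10, and Lum and Foxd3 in controls. Neuronal markers were called in 0 of 13 with any peptide, but without Tβ4 replicate 2, 3 were called lower with Tβ4, and with NP24, 2 were called higher by DESeq2 or without NP24 replicate 4. Of 8 astrocyte markers, Aqp4 rose with NP24 and Tβ10. With Tβ4 its log2 difference was 1.37 and did not pass (limma adjusted p = 0.442). Of 8 oligodendrocyte lineage markers, 2 (Mbp and Olig2) fell with NP24 and none with Tβ10. The call of Aqp4 with Tβ10 was lost without Tβ10 replicate 3, control replicate 1 or control replicate 4, and that of Olig2 without NP24 replicate 3, control replicate 1 or control replicate 4. Without Tβ4 replicate 2, 6 of the 8 astrocyte markers were called higher with Tβ4. None of 4 Schwann cell markers tested passed, and their summed level was 72.9 to 183 normalized counts with NP24, 87.6 to 155 with Tβ10, 142 to 232 with Tβ4 and 130 to 159 in controls.

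Correlations between members differed from pair to pair. Coefficients of log2(normalized count + 1) over the 16 libraries, given as descriptions of libraries that share depth and scaling, were 0.63 for Egr1 with Egr2, 0.32 for Egr1 with Egr3 and −0.25 for Egr1 with Egr4. For deviations from the group means the same pairs gave 0.67, 0.45 and 0.45. For Egr1 with Nab2 the coefficient was −0.12 across all libraries but 0.76 for deviations from the group means. Deviations of Egr2 and Egr4 gave 0.75, and those of Egr1 and Nab1 gave −0.14.

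The named genes most like each member over the 16 libraries were found by Pearson r among 12552 genes with a mean of at least 50 normalized counts. For Egr1 they were Zfp36l1 (r = 0.94), H19 (0.94), Dusp1 (0.94) and Scpep1os (0.93), and for deviations from the group means the coefficients were 0.83, 0.73, 0.94 and 0.65. Dusp1, another immediate early gene and a phosphatase that acts on MAP kinases, thus followed Egr1 as closely within groups as across them. Egr2 was most like Pim1 (0.87), Gla, Acot2 and Apoh (0.81). Egr3 was nearest to Pax6os1 (0.86), Ska3, Ccnd3 and Fam114a1 (0.85), and Egr4 to Med11 (0.88), Khdrbs1, Pitpna and Armc1 (0.84). Nab1 came closest to Ncapg (0.81), Suz12, Psmc6 and Gpbp1 (0.78), and Nab2 to Ccdc92 (0.90), Csrnp2, Chmp5 and Tnfaip1 (0.87).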

How the data were processed

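Total RNA was sequenced with a stranded SMARTer kit, per the labels' protocols. The tools named in the submitters' processing notes are HISAT and HISAT2 (alignment), featureCounts, DESeq2 and FastQC, with build GRCm38; versions, annotation and strand setting are not given in the sources used here. The deposited library values are signal: read counts per gene, scaled by the authors with 1 factor for each library. All 3 deposited tables hold the same 16 libraries and agree within 0.452. Every nonzero value (100%) was a whole multiple of its library's step at a tolerance of 0.01, so reads were recovered. The authors also deposited log2 fold changes, a Wald statistic (a score) and p-values, quoted only where their table is named. GENCODE M21 gave positions and matched 45045 of 45724 identifiers with version, 45596 without.

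From these values, limma 3.58.1 (R 4.3.3; trend) was run on log2(value + 1) keeping genes that reached 10 normalized counts in 4 or more libraries of the fit: 8 libraries for each peptide against control, all 16 for peptide pairs. The plan allowed for counts or normalized values; the values were normalized, so a count test was not the main one. On recovered reads edgeR 4.0.16 called 518, 129 and 0 genes and DESeq2 1.42.0 called 1178, 432 and 82 with NP24, Tβ10 and Tβ4. Other alternatives were pseudocounts of 0.1 and 10, no filter, scaling to library size or by TMM, another spread, a replicate block and leaving out each library. The limma step was tested on simulated data in which all genes had the same spread setting and no library stood apart. That test cannot show how the calls here depend on single libraries. Ratios to Egr1 used exact permutation tests. Genes beside the members were named as the up to 3 smallest p-values of each list and comparison, and the 4 most similar genes; the other called genes named were chosen after their values were seen. Some genes that this rule selects are not reported here. The members and lists were chosen with earlier results of these data known.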

Additional observations from a re-analysis of the deposited data

Results flagged for a closer look

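Egr1 was noted because its difference from the same control differed between peptides by a direct test. The log2 difference was −1.79 for NP24 against Tβ4 (limma adjusted p = 0.000459) and −1.87 for Tβ10 against Tβ4 (limma adjusted p = 0.000313), with every NP24 and Tβ10 library below every Tβ4 library. None of the 24 sets of 4 libraries (6 genes, 4 groups) held a library far enough from the other 3 to exceed Dixon's critical value for 4 samples.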

How the results depend on the processing

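With NP24, Tβ10 and each against Tβ4, Egr1 was called in all 8 fits without 1 library and in all 9 other alternatives, with log2 differences of −1.65 to −1.25, −1.73 to −1.38, −1.98 to −1.52 and −2.06 to −1.65 without 1 library. Among the alternative values of members, 590 kept their direction and side of the threshold, 2 newly passed and 20 changed sign. Members called were 2 in place of 1 with NP24 under DESeq2 (Egr4 added), and 0 to 1 with Tβ4 without 1 library (1, Egr1, without Tβ4 replicate 2).

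The sign changed under library-size scaling for Egr2 with NP24 (0.016) and Nab1 with Tβ10 (0.062). Without 1 library, log2 differences spanned 0 for Egr1 (−0.14 to 0.35) and Egr3 (−0.019 to 0.18) in NP24 against Tβ10, for Egr2 with NP24 (−0.30 to 0.31), for Nab1 (−0.17 to 0.079) with Tβ10, for Nab2 (−0.15 to 0.16) with Tβ4, for Nab1 (−0.024 to 0.13) and Nab2 (−0.018 to 0.32) in NP24 against Tβ4, for Egr4 (−0.094 to 0.45) in Tβ10 against Tβ4, and for the log2 ratio of Nab1 to Egr1 with Tβ4 (−0.25 to 0.068); none of these was called.

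Over all genes, counts called depended on the processing. Against the control, NP24 gave 572 (365 without the filter, 138 with the pooled spread of 16, 1178 by DESeq2, 133 to 757 without 1 library). Tβ10 gave 139 (432 by DESeq2, 62 with the spread of 16, 29 to 320 without 1 library), and Tβ4 gave 0 (82 by DESeq2, 2 with the spread of 16, 0 to 360 without 1 library). NP24 against Tβ4 gave 507 (1172 by DESeq2, 117 with the spread of the 8 libraries, 103 to 1392 without 1 library). Tβ10 against Tβ4 gave 326 (184 without the filter, 614 scaled to library size, 813 by DESeq2, 76 with the spread of 8, 87 to 1055 without 1 library). The largest counts against Tβ4 came without Tβ4 replicate 2; the cause was not tested. Scaled to library size, genes called higher and lower were 509 and 257 with NP24 (253 and 319 as reported), 56 and 67 with Tβ10 (22 and 117), 363 and 269 in NP24 against Tβ4 (107 and 400) and 449 and 165 in Tβ10 against Tβ4 (72 and 254); this scaling moved the median log2 difference of all genes to 0.13 in NP24 against Tβ4 and to 0.18 in Tβ10 against Tβ4.

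Replicate numbers did not pair libraries: 24 same-numbered pairs had correlations of deviations from −0.30 to 0.11, 1 of them over 0.1, and 2 of 16 libraries correlated best with their own number. The replicate block changed no member's call, though it ended calls of listed genes, among them Srf and Cdkn1a with Tβ10 and Gatad2b with NP24; it gave 91 genes with Tβ10, 2 with Tβ4 and 214 in Tβ10 against Tβ4. The 10 ratio tests passed became 0 with the replicate block (sign flips, smallest p 0.125) and 0 to 10 without 1 library, because 3 against 4 libraries cannot go below an exact permutation p of 0.0571. Depth limits Egr4 most, at 1 to 20 reads per control library.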
